A study of Mus musculus with 8 samples.

Results

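The genes described here are 10 mouse genes of the MHC class I pathway, out of 17987 genes tested. They comprise the classical heavy chains H2-K1 and H2-D1, the nonclassical heavy chains H2-Q8, H2-T23, H2-M3 and H2-M2, the light chain B2m, the peptide transporter subunits Tap1 and Tap2, and the loading factor Tapbp (tapasin). They were chosen by gene name, and each was read by its brightest non-control probe on a dual-colour Agilent array. The array carried 2 probes for H2-K1 and 1 for each of the other 9 genes. In both channels of all 8 arrays, 9 of the 10 genes were well above background by the scanner's own flag. H2-M2 was the exception, and was well above background in the day 3 channel of 7 arrays and in the day 0 channel of 4.

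The samples were cytoplasmic RNA of bone marrow derived macrophages, in 4 groups of 2 arrays, 1 array from each of 2 biological experiments. The genotypes were ERT2 Cre, called control cells here, and ERT2 Cre Thoc5 (flox/flox), called flox cells, both on the background C57BL/6 x B6:129 Ola. All groups therefore carried ERT2 Cre, a recombinase held inactive until tamoxifen binds it, and the flox cells carried in addition the Thoc5 alleles that it can cut. THOC5 is a subunit of the THO complex, which couples transcription to mRNA export. Cells of each genotype were differentiated for 3 days under CSF-1, the macrophage growth factor, either without treatment or with tamoxifen. Each array set this day 3 RNA against untreated day 0 RNA that matched it in genotype and experiment, so that the array without and the array with tamoxifen shared 1 day 0 extract. The dyes were exchanged between the experiments. Dye, slide and experiment cannot be told apart, and the main fit carried 1 term for all of them. The promoter that drives the Cre, the number of mice behind an extract and their age were not given in the sources used here. The labels name the arrays of a group as separate biological experiments. Their number, 2 in each group, limits the precision of every value.

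MHC class I molecules show peptides from inside the cell to CD8+ T cells and to natural killer cell receptors. The proteasome makes the peptides, TAP1 and TAP2 pump them into the endoplasmic reticulum, tapasin holds the empty heavy chain at the transporter, and β2-microglobulin, the product of B2m, pairs with the heavy chain. Macrophages carry class I at their surface, and its genes are induced together by interferons and by the transactivator NLRC5. The nonclassical chains have narrower ligands: H2-T23 encodes Qa-1, a ligand of the CD94/NKG2A receptor, and H2-M3 presents formylated bacterial peptides.

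The upstream sequences of 5 genes are shown first, for the short elements known from class I promoters, which the genes carry to a different extent. Sequences are from RefSeq on GRCm38.p6, which held 9 upstream windows for 8 of the 10 genes (2 starts for H2-K1). H2-Q8 and Tap2 were not in the table. Each run is the 250 bases before the annotated start, read 5′ to 3′ along the gene's own strand. Capitals mark every match on either strand to TTTCNNTT (core of an interferon response element), GGGNNTTCC (kappaB-like), TGACG (cyclic AMP response element-like) and CCAAT (Y box). The elements were chosen with these sequences in view. The windows lie at chr17:34000334-34000583 (minus strand) for H2-K1, chr17:35262844-35263093 (plus) for H2-D1, chr2:122147437-122147686 (plus) for B2m, chr17:34187306-34187555 (plus) for Tap1 and chr17:37483555-37483804 (minus) for H2-M2.
H2-K1: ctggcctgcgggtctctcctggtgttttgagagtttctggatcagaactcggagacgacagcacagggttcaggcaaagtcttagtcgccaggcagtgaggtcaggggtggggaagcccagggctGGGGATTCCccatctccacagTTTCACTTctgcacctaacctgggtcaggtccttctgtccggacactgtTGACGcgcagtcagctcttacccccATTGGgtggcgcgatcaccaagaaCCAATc
H2-D1: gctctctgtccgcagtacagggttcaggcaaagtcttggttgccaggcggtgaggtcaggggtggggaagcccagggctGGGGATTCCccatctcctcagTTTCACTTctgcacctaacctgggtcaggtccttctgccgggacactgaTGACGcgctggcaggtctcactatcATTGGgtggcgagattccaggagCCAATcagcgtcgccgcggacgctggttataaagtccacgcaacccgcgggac
B2m: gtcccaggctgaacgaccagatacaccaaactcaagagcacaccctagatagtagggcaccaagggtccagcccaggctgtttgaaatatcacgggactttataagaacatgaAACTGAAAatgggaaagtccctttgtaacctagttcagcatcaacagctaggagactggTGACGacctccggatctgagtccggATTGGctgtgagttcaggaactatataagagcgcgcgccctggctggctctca
Tap1: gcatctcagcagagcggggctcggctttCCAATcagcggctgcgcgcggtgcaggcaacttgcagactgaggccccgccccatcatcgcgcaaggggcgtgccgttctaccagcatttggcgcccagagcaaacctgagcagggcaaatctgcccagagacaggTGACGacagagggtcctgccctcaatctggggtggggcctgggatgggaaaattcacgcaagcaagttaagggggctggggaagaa
H2-M2: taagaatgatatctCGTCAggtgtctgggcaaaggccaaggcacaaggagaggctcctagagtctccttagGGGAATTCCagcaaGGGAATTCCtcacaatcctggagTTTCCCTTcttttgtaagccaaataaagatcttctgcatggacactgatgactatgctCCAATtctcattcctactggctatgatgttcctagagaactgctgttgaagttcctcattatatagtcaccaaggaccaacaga

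The windows of H2-K1 and H2-D1 held the same order of elements: a GGGGATTCC kappaB-like match, a TTTCACTT match, a TGACG match and an inverted CCAAT. B2m held a match to 3 of the 4 elements and lacked the kappaB-like one. Tap1 held TGACG and CCAAT and no match to TTTCNNTT or GGGNNTTCC. H2-T23, whose window is not shown, held no match to GGGNNTTCC or TGACG. Of the other genes not shown, H2-M3 held the same 3 elements as B2m, and Tapbp held CCAAT alone. The H2-M2 window held GGGAATTCC in 2 copies, at 179 to 171 and at 165 to 157 bases before the start. Its TGACG match stood apart from the others, on the reverse strand at 236 to 232 bases before the start. Over the 8 genes with a window, CCAAT was found in 8, TTTCNNTT in 6, TGACG in 6 and GGGNNTTCC in 3. Of 32851 upstream windows of the same length in the whole table, 33.8% held CCAAT, 21.3% TTTCNNTT, 17.8% TGACG and 4.98% GGGNNTTCC. The heavy chains are related by duplication and share promoter sequence, so these windows are not independent. A match describes letters in the window and says nothing of binding in these cells. Whether the elements bear on the changes described below was not tested.

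Thoc5 was read first, as the check of the labels. Its log2 ratio of day 3 over day 0 was -3.04 and -3.02 on the arrays of tamoxifen-treated flox cells, -0.74 and -0.77 on those of untreated flox cells, and between -0.40 and -0.15 on the 4 control arrays. Tamoxifen lowered it in flox cells by 4.83-fold (log2 difference -2.27 ± 0.10, SE, limma adjusted p = 0.000713). Without tamoxifen flox cells read lower than control cells by 0.42 ± 0.10, which missed the threshold (adjusted p = 0.073). Thoc5 sets the treated flox arrays apart from the other 6, and does not check which control arrays were treated. All 8 macrophage markers read (among them Csf1r, Adgre1 and Cd68) were well above background in every group at both days. The 8 neutrophil markers were as well, and at day 0 their mean log2 level was 15.8 to 15.9 in flox cells against 14.9 to 15.2 in control cells. Their median log2 ratio of day 3 over day 0 lay between -3.73 and -3.45 in the 4 groups. Of 8 B-lineage markers, 1 or 2 were well above background at day 3, as were 3 of 6 T cell, 2 of 5 NK cell, 3 or 4 of 7 dendritic and 1 of 4 erythroid markers. In bulk RNA, fewer cells of a type and less RNA per cell cannot be told apart, and the part of the day 0 cell mixture in the day 3 over day 0 ratios was not tested.

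From day 0 to day 3, the heavy chains H2-K1, H2-D1, H2-Q8 and H2-T23 and the light chain B2m rose in control cells, while Tap1, Tap2, Tapbp and H2-M3 did not pass the test. In control cells without tamoxifen 5 of the 10 genes were called higher and 0 lower, at a limma adjusted p under 0.05 over all genes. In the same comparison 57.4% of all genes were called, 23.3% higher and 34.1% lower. With tamoxifen 6 were called higher and 0 lower, against 57.7% of all genes called, 23.9% higher and 33.8% lower. In flox cells without tamoxifen 4 were higher (H2-D1, H2-T23, H2-M2 and B2m) and 1 lower (Tap2), with 57.2% of all genes called, 23.9% higher and 33.4% lower. In flox cells with tamoxifen 6 were higher and 1 lower, with 58.9% of all genes called, 25.5% higher and 33.4% lower. The number of genes called was thus close to the background, and the split leaned to higher values. The median log2 ratio of the 10 genes was 0.38 in control cells, 0.72 in control cells with tamoxifen, 0.20 in flox cells and 0.71 in flox cells with tamoxifen. Over all genes these medians lay between -0.06 and -0.05.

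**Figure D1:**
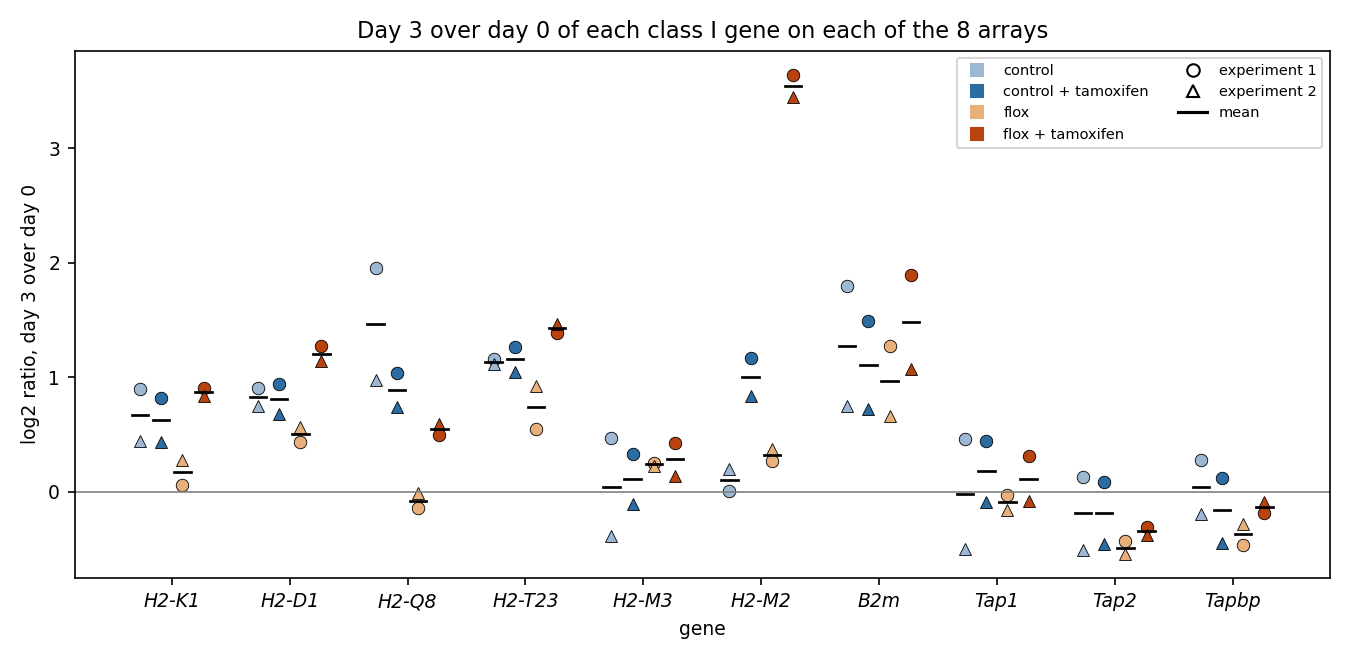
Log2 ratio of day 3 over day 0 RNA (vertical axis) of the 10 class I genes on each of the 8 arrays; colours are the groups, circles experiment 1, triangles experiment 2 and bars the mean of the 2 arrays. H2-M2 stood at 3.64 and 3.44 in flox cells with tamoxifen and at 1.17 or less on the other 6 arrays, and the arrays of untreated flox cells gave the lowest H2-K1, H2-D1, H2-Q8 and H2-T23 ratios.

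H2-K1, the classical K heavy chain, was read by a probe at chr17:34133055-34133114 (mm9, minus strand). Its log2 ratio of day 3 over day 0 was 0.90 in experiment 1 and 0.44 in experiment 2 in untreated control cells. Tamoxifen-treated control cells gave 0.82 and 0.43. In flox cells it was 0.06 and 0.28 without tamoxifen and 0.91 and 0.83 with it. The untreated flox arrays were the lowest and did not overlap the other 6. How many of all genes separate the arrays in such ways was not counted, here or for the genes below. Tamoxifen changed the ratio in flox cells by 0.70 ± 0.18 (SE), 1.63-fold, which missed the threshold (limma adjusted p = 0.0596). It passed when either array of untreated control cells was left out (adjusted p = 0.0401), and over the 8 omissions the value lay between 0.44 and 0.96. The second H2-K1 probe, at chr17:34133984-34134043, gave ratios of 0.47 and 0.78 in untreated flox cells and of 1.28 and 1.35 in treated ones. Its tamoxifen effect in flox cells was 0.69 ± 0.14 and passed over all probes (limma adjusted p = 0.0365). For this effect both probes gave a like value, on different sides of the threshold. They differed for the rise from day 0 in untreated flox cells, which was 0.17 by the first probe (adjusted p = 0.283) and 0.62 by the second (adjusted p = 0.00227). The mean of the probes gave 0.40 (adjusted p = 0.0205) and median centring of the first probe 0.40 (adjusted p = 0.0413), so that whether H2-K1 rose there depends on the probe and the normalization. The rise from day 0 in control cells passed without tamoxifen (adjusted p = 0.00428) and with it (0.00555). Each of these calls was lost without its group's array of experiment 1 (adjusted p = 0.0604 and 0.115).

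H2-D1, the classical D heavy chain (probe at chr17:35403886-35403945, plus strand), repeated that order with a tighter spread. Its log2 ratios were 0.91 and 0.75 in control cells without and 0.94 and 0.68 with tamoxifen, then 0.44 and 0.56 in flox cells and 1.27 and 1.14 in flox cells with tamoxifen. Untreated flox cells were lowest, treated flox cells highest, and neither overlapped the control arrays. The effect of tamoxifen in flox cells was 0.70 ± 0.12, 1.63-fold, and passed (limma adjusted p = 0.0216). This call was lost when any 1 flox array was left out (values from 0.55 to 0.86, highest adjusted p = 0.138), and held without each control array. In control cells tamoxifen gave -0.01 ± 0.12. The rise from day 0 passed in all 4 groups, and in untreated flox cells was lost without experiment 2's array of that group (0.34, adjusted p = 0.0773).

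H2-T23, the Qa-1 heavy chain, was read by a probe whose 2 ends lie 237 bases apart in mm9 (chr17:36167338-36167574, minus strand). Its log2 ratios were 1.16 and 1.11 in control cells, 1.26 and 1.05 with tamoxifen, 0.55 and 0.93 in untreated flox cells and 1.38 and 1.47 in treated ones. The flox groups again lay below and above all 4 control arrays. Tamoxifen raised it in flox cells by 0.69 ± 0.15, 1.61-fold (limma adjusted p = 0.0421). The call was lost without any 1 flox array or either array of tamoxifen-treated control cells, with values from 0.47 to 0.90 and a highest adjusted p of 0.23. It was also lost with Agilent's processed signals (adjusted p = 0.0791).

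H2-Q8, a nonclassical Qa-region chain (probe at chr17:35532392-35532451, plus strand), had its lowest ratios in untreated flox cells. Its log2 ratios were 1.95 and 0.97 in control cells, 1.04 and 0.74 in treated control cells, -0.15 and -0.01 in flox cells and 0.49 and 0.59 in flox cells with tamoxifen. All 4 control arrays were above all 4 flox arrays. With tamoxifen in both genotypes, flox cells differed from control cells by -0.34 ± 0.26 (limma adjusted p = 0.438). The change from day 0 was 2.76-fold in control cells without tamoxifen (limma adjusted p = 0.000961) and was not called in flox cells without it (-0.08 ± 0.19, adjusted p = 0.735). In flox cells with tamoxifen it was 0.54 ± 0.19 (adjusted p = 0.0438). That call was lost without either array of its own group (0.30 and 0.78) or of tamoxifen-treated control cells (adjusted p = 0.0769), and without the experiment term (0.0667). The rise in tamoxifen-treated control cells (0.89, adjusted p = 0.00716) was lost without either array of its group (0.095 and 0.0857).

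B2m, the light chain shared by all these heavy chains, lies on chromosome 2 (probe at chr2:121978401-121978460, plus strand). Its log2 ratios differed more between the experiments than between the groups. They were 1.79 and 0.75 in control cells, 1.49 and 0.72 with tamoxifen, 1.27 and 0.66 in flox cells and 1.89 and 1.07 in flox cells with tamoxifen. The mean of the 4 groups was 1.61 in experiment 1 and 0.80 in experiment 2. In every group B2m rose from day 0 (limma adjusted p from 6.18e-05 to 0.000284). Within each experiment untreated flox cells were lowest and treated flox cells highest. The tamoxifen effect in flox cells was 0.51 ± 0.13, 1.43-fold, and missed the threshold (adjusted p = 0.0577). It passed without either array of untreated control cells (adjusted p = 0.0315).

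Tap1, which forms the peptide pump with Tap2, was near its day 0 level throughout (probe at chr17:34330854-34330913, plus strand). Its log2 ratios ran from -0.50 to 0.46 over the 8 arrays, and the highest 3 were all of experiment 1. Tap2 (probe at chr17:34353116-34353175, plus strand) fell in flox cells, by 0.49 without tamoxifen (limma adjusted p = 0.0127) and by 0.34 with it (adjusted p = 0.0453). Its ratios there were -0.44 and -0.54, and -0.31 and -0.38. The first call was lost without experiment 1's array of that group (-0.34, adjusted p = 0.201), and the second without any of 6 arrays, at a highest adjusted p of 0.507. Both were lost in the fit without the experiment term (adjusted p = 0.0565 and 0.151). In control cells Tap2 gave -0.19 in both groups, with ratios from -0.51 to 0.13. The direct comparison of the genotypes, flox against control, did not pass for Tap2. It gave -0.30 ± 0.17 without tamoxifen (limma adjusted p = 0.337) and -0.15 ± 0.17 with it (adjusted p = 0.595).

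Tapbp (probe at chr17:34065963-34066022, plus strand) had ratios from -0.47 to 0.28. Its group means were 0.04 in control cells, -0.16 in control cells with tamoxifen, -0.37 in flox cells and -0.14 in flox cells with tamoxifen, and none passed. H2-M3 (probe at chr17:37411350-37411409, plus strand), the presenter of formylated peptides, had group means of 0.04, 0.11, 0.24 and 0.28 in the same order. None passed (adjusted p from 0.116 to 0.82), and in control cells the 2 experiments differed in sign.

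Tamoxifen raised 3 of the 10 genes in flox cells, namely H2-D1, H2-T23 and H2-M2, and lowered 0. Of all genes 9.03% were called in this comparison, 4.87% as higher. All 10 estimates were above 0, with a median of 0.57 on the log2 scale against -0.01 over all genes. Of all 17987 genes, 8780 had an estimate above 0. The 10 estimates come from the same flox arrays, and are not independent of each other. The heavy and light chains other than H2-M3 and H2-M2 lay between 0.51 and 0.70. The 4 smallest positive estimates were those of H2-M3 (0.04), Tap2 (0.15), Tap1 (0.21) and Tapbp (0.23), none of which passed. In the fit without the experiment term 1 of the 10 was called, H2-M2. H2-D1 and H2-T23 then had adjusted p = 0.0556 and 0.0778. With median centring they had adjusted p = 0.105 and 0.106. In the same comparison 3 of 8 macrophage markers passed: Cd68 rose by 0.99, and Itgam and Fcgr1 fell by 0.86 each. Mmp8 of the neutrophil list rose by 0.72, Itgax of the dendritic list rose by 1.40 and Cd79b of the B-lineage list fell by 1.09. The part of these changes in the class I values was not tested.

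In control cells tamoxifen changed 0 of the 10 genes, and 0% of all genes passed. Of 17985 genes tested here, 994 had an unadjusted limma p under 0.05. Only 1 of the 10, H2-M2, was among those. The 10 estimates had a median of -0.01, with 5 above and 5 below 0. The difference between the tamoxifen effects, flox minus control, was called for 1 of the 10, H2-M2, against 1.14% of all genes, 0.545% as higher. For the genes with a smaller effect it was 0.75 ± 0.25 for H2-K1, 0.72 ± 0.17 for H2-D1, 0.67 ± 0.21 for H2-T23 and 0.68 ± 0.18 for B2m, none of which passed (limma adjusted p from 0.116 to 0.221). The 95% interval for H2-D1 ran from 0.30 to 1.13.

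**Figure D2:**
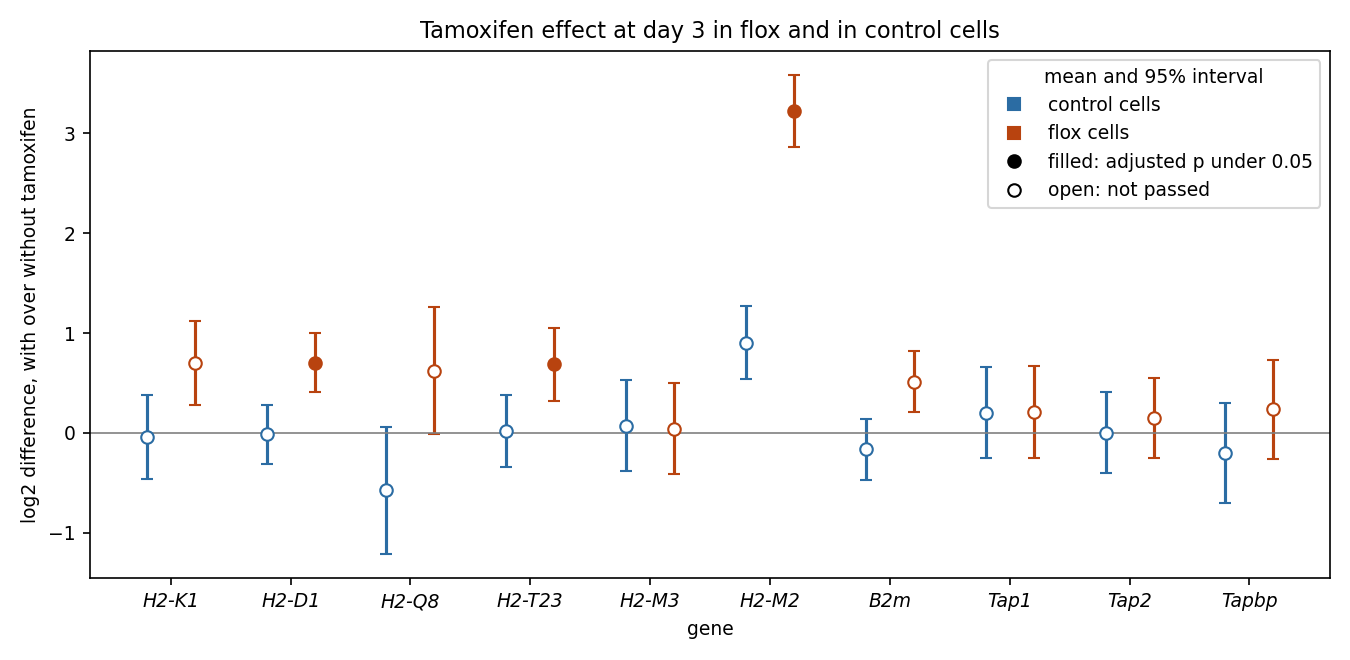
Log2 difference between the day 3 over day 0 ratios with and without tamoxifen (vertical axis) for the 10 class I genes, with 95% intervals from the limma fit, in control cells (blue) and flox cells (orange); filled points passed at an adjusted p under 0.05. In flox cells H2-M2 stood at 3.22 and H2-D1 and H2-T23 at 0.70 and 0.69, while no point of the control cells was filled. The H2-M2 point of control cells rests on readings near background.

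H2-M2, a nonclassical heavy chain gene, changed most of the 10. It was read by a probe at chr17:37618042-37618101 (mm9, minus strand). Its log2 ratios of day 3 over day 0 were 0.00 and 0.19 in control cells, 1.17 and 0.84 in treated control cells, 0.27 and 0.37 in flox cells and 3.64 and 3.44 in flox cells with tamoxifen. Both treated flox arrays stood far above the other 6. Among the control arrays, those with tamoxifen did not overlap those without. How many of all genes separate these arrays so was not counted, and the readings of untreated control cells lay near background. The rise from day 0 in untreated flox cells was 0.32 ± 0.11 (limma adjusted p = 0.0408). It was lost without any 1 flox array (values from 0.21 to 0.43), without the experiment term (adjusted p = 0.0548) and with median centring (0.155).

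In flox cells tamoxifen raised H2-M2 by 3.22 ± 0.15 on the log2 scale, 9.35-fold (limma adjusted p = 0.000713). This passed in each of the 8 fits that left out 1 array, with values from 3.11 to 3.33. In control cells the measured difference was 0.90 ± 0.15, which missed the threshold over all genes (adjusted p = 0.404). No fold is given for it, because H2-M2 was well above background on 1 of the 2 day 3 readings of untreated control cells and on 0 of the 4 day 0 readings of control cells. With Agilent's processed signals the value was 1.73 (adjusted p = 0.347), and over the other alternatives it lay between 0.72 and 1.09. The effect in flox cells exceeded the measured one in control cells by 2.32 ± 0.21 (adjusted p = 0.0182), and by 2.21 in experiment 1 and 2.43 in experiment 2. As the control effect may be larger than measured, this difference is not exact and may be smaller. The difference kept values between 2.14 and 2.50 when 1 array was left out. It passed in 2 of the 8 such fits, those without an array of untreated control cells, and missed in the other 6 (highest adjusted p = 0.144, without the tamoxifen-treated control array of experiment 2). With Agilent's processed signals it was 1.64 and missed (adjusted p = 0.0957).

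The channels showed where H2-M2 lay near background. At day 3 its log2 level was 7.02 and 7.08 in control cells (experiments 1 and 2), 8.27 and 7.61 in treated control cells, 8.13 and 7.83 in flox cells and 11.75 and 11.11 in flox cells with tamoxifen. The value of 7.02 was not well above background. The treated flox cells were highest, untreated control cells were lowest, and the remaining pair of groups overlapped. At day 0 the arrays of flox cells read 7.87, 8.11, 7.46 and 7.66. None of the 4 day 0 readings of control cells was well above background, and all lay between 6.78 and 7.10. At day 0 the measured level was 1.78-fold higher in flox cells than in control cells. On no control array was the lowest day 0 value flagged as well above background higher than the H2-M2 reading. Raising dim readings to that value could therefore not change this fold, and is no check of it. As the control readings were dim, the true fold may be larger. The spread between extracts is not part of it, so 1.78 is no lower bound. The measured log2 difference was 0.83 ± 0.13, and missed the threshold in the fit of the 4 day 0 extracts (limma adjusted p = 0.0979). With Agilent's processed signals it was 1.81 and passed (adjusted p = 0.013). It also passed without 1 array of untreated control cells (adjusted p = 0.0301) and without 1 of untreated flox cells (adjusted p = 0.0416), both of experiment 2, omissions added after seeing the data. In control cells with tamoxifen the measured rise from day 0 was 2.00-fold, which raising dim readings in the same way likewise could not change. The true fold may be larger, as the day 0 readings were dim, but 2.00 is no lower bound either. On the log2 scale this rise was 1.00. It was 0.82 without that group's array of experiment 1 and 1.19 without that of experiment 2.

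**Figure D3:**
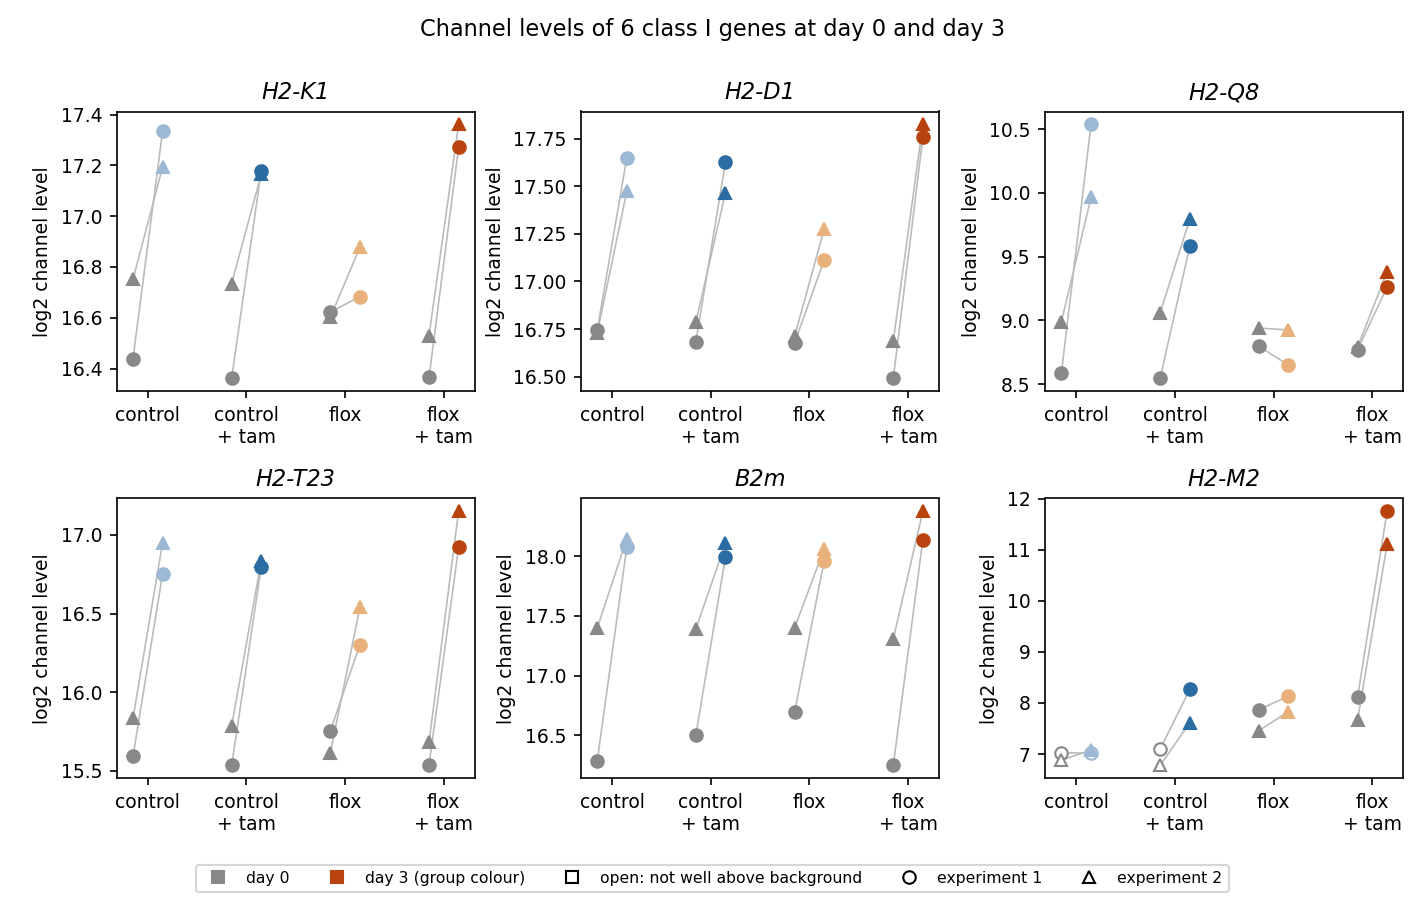
Log2 channel level (vertical axes, each panel with its own scale) of H2-K1, H2-D1, H2-Q8, H2-T23, B2m and H2-M2 at day 0 (grey) and day 3 (group colour), with a line joining the channels of 1 array; circles are experiment 1, triangles experiment 2, and open points were not well above background. Open points occur only for H2-M2 in control cells, and the day 3 points of untreated flox cells lie below those of the other groups for H2-K1, H2-D1, H2-Q8 and H2-T23.

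Without tamoxifen, flox cells had lower ratios than control cells for 8 of the 10 genes, and for 9003 of all 17986 genes tested here. Of the 8, 1 gene, H2-Q8, passed as lower. Of all genes 2.85% were called, 1.41% as lower. The median difference of the 10 was -0.32 on the log2 scale, against -0.00 over all genes. H2-Q8 differed by -1.54 ± 0.26, 2.91-fold (limma adjusted p = 0.0416), and by -2.10 in experiment 1 and -0.99 in experiment 2. This call was lost in each of the 8 fits that left out 1 array, with values from -2.02 to -1.07 and a highest adjusted p of 0.282. It was also lost in the fit without the experiment term (adjusted p = 0.111). H2-K1 differed by -0.50 ± 0.18, Tapbp by -0.41 ± 0.21, H2-T23 by -0.40 ± 0.15, H2-D1 by -0.33 ± 0.12 and B2m by -0.30 ± 0.13, none of which passed. For each of these the difference was larger in experiment 1: for H2-K1 it was -0.84 against -0.17. H2-M2 (0.22, with the control readings near background) and H2-M3 (0.20) were the 2 estimates above 0. In the day 3 channel alone H2-M2 differed by 0.93 (adjusted p = 0.0285). In that channel H2-K1 (-0.48, adjusted p = 0.0464), Tapbp (-0.56, 0.0294) and H2-T23 (-0.43, 0.0471) also passed, as lower in flox cells. These values use the same arrays of untreated flox cells as the tamoxifen effect in flox cells, and are not separate evidence.

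With tamoxifen in both genotypes, 1 of the 10, H2-M2, was called higher in flox cells, against 11.3% of all genes called, 5.42% as higher. In the day 3 channel alone, where it was well above background on all 4 arrays with tamoxifen, H2-M2 was higher in flox cells by 3.49 on the log2 scale (limma adjusted p = 0.000494). As a ratio to day 0 the measured difference was 2.54 ± 0.15 (adjusted p = 0.0025), and 1.82 with Agilent's processed signals (adjusted p = 0.015). That difference is not exact, because the day 0 readings of control cells were not well above background and their ratios may be larger than measured. It passed in 7 of the 8 fits that left out 1 array, and missed without the tamoxifen-treated control array of experiment 1 (2.73, adjusted p = 0.0538). H2-D1 (0.39 ± 0.12) and B2m (0.38 ± 0.13) missed the threshold, with adjusted p = 0.0904 and 0.107. The other 7 genes lay between -0.34 and 0.27.

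In the untreated day 0 RNA, 0 of the 10 genes were called between the genotypes, against 0.339% of all genes. At an unadjusted limma p under 0.05 stood 2 of them, H2-M2 and H2-M3, and 1495 of all 17987 genes. H2-M3 was lower in flox cells by 0.36 ± 0.15 (adjusted p = 0.599). The remaining 8 genes differed by -0.15 to 0.03. H2-K1, for example, read 16.40 and 16.74 in the control extracts of experiments 1 and 2 and 16.49 and 16.56 in the flox extracts. This fit rested on 4 extracts with 1 residual degree of freedom. Over the 10 genes the arrays of 1 extract differed by a median of 0.06 and by at most 0.44, for B2m in flox cells of experiment 1.

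Among the other class I heavy chains, 5 genes named for the Q region rose with tamoxifen in flox cells, and H2-Q4 did not pass. Of 31 genes listed 26 were on the array and 17 were bright enough to be tested. In flox cells tamoxifen raised 5 of the 17 and lowered 0, with a median of 0.20, against 4.87% of all genes called higher and a median of -0.01. The 5 were H2-Q7 (0.86 ± 0.15, limma adjusted p = 0.0218), H2-Q6 (0.70 ± 0.12, 0.021), H2-Q5 (0.63 ± 0.12, 0.0306), H2-Q2 (0.61 ± 0.11, 0.0234) and H2-Q10 (0.59 ± 0.12, 0.0345). H2-Q4 gave -0.02 ± 0.24 (adjusted p = 0.972). For H2-Q7 the ratios were 1.16 and 1.09 in control cells, 1.12 and 1.04 with tamoxifen, 0.43 and 0.86 in untreated flox cells and 1.41 and 1.59 in treated ones. That is the order seen for H2-D1 and H2-T23. The number called higher fell to 0 when any 1 flox array was left out, to 1 without the experiment term or with median centring, and to 2 without either tamoxifen-treated control array. With tamoxifen in both genotypes 1 of the 17, H2-T24, was lower in flox cells (-0.74, adjusted p = 0.0401), a call lost without any 1 flox or tamoxifen-treated control array. Class I genes are near-identical in long stretches, and probes of this family can share target RNA, so the values of single family members are uncertain. From day 0 to day 3 in control cells without tamoxifen, 12 of the 17 rose and 4 fell, against 23.3% and 34.1% of all genes. Fcgrt, the neonatal Fc receptor, rose by 2.10 and Cd1d1, which presents lipids to NKT cells, fell by 2.02.

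Genes for peptide loading and trimming were mostly lower at day 3. In control cells 10 of 14 fell to day 3 and 1 rose, with a median of -0.57, against 34.1% of all genes called lower and 23.3% higher. The chaperone calreticulin (Calr) fell by 1.07 (limma adjusted p = 8.31e-05), the chaperone gene Hspa5 (BiP) by 0.83 and the peptidase gene Blmh by 0.98. In flox cells tamoxifen changed 0 of the 14 (median 0.00), against 9.03% of all genes. With tamoxifen in both genotypes Lnpep (0.55, adjusted p = 0.0248) and Calr (0.44, 0.0365) were higher in flox cells. Neither passed when any 1 array with tamoxifen was left out, without the experiment term or with median centring. Of 6 immunoproteasome genes tamoxifen changed 0 in flox cells. Psmb8, an inducible catalytic subunit, rose from day 0 in each of the 4 groups, by 0.55 to 0.73.

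Tamoxifen in flox cells changed 0 of 15 class I regulators (median -0.10) and 1 of 13 interferon signalling genes. With 9.03% of all genes called in this comparison and lists this short, these counts are near the background. Nlrc5, the class I transactivator, had ratios of -0.37 and -0.91 in control cells, -0.67 and -1.51 with tamoxifen, -1.68 and -1.77 in untreated flox cells and -1.15 and -0.85 in treated ones. Its tamoxifen effect in flox cells was 0.72 ± 0.26 (limma adjusted p = 0.142), and its difference from untreated control cells in untreated flox cells was -1.09 ± 0.26 (adjusted p = 0.0761). Relb, a subunit of noncanonical NF-kappaB, gave 0.56 ± 0.14 (adjusted p = 0.0596) and -0.59 ± 0.14 (adjusted p = 0.0774) in the same comparisons. None of these 4 values passed. The 1 interferon signalling gene called in flox cells was Socs1, a brake on JAK kinases, which tamoxifen lowered by 1.13 ± 0.16 (adjusted p = 0.012). That call was lost without either untreated flox array or the treated one of experiment 2 (highest adjusted p = 0.0907). With tamoxifen in both genotypes Irf7, the interferon-induced transcription factor, was lower in flox cells by 0.95 (adjusted p = 0.0488), and Socs1 by 0.75 (adjusted p = 0.0352). Both calls were lost without any 1 array with tamoxifen, and without the experiment term.

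**Figure D4:**
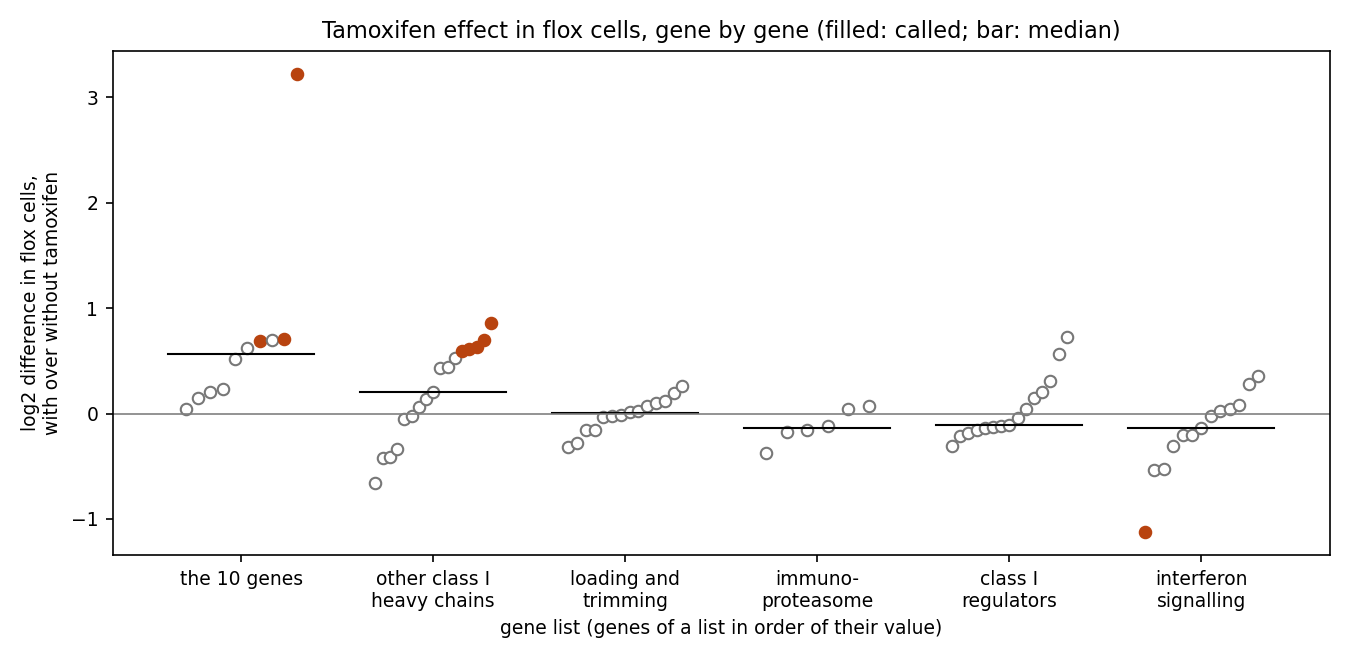
Log2 difference in flox cells with over without tamoxifen (vertical axis) for the 10 class I genes and for 5 further gene lists, each point 1 gene in order of its value; filled points passed at a limma adjusted p under 0.05 over all genes and bars mark medians. Filled points are H2-M2, H2-D1 and H2-T23 among the 10 genes, 5 Q-region genes among the other heavy chains and Socs1 below 0, and the loading, immunoproteasome and regulator lists have none.

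Among 1258 other genes whose 8 ratios had an SD of at least 0.5, the 3 most like H2-M2 over the 8 arrays were Col18a1 (Pearson r = 0.984), Gm14461 (0.981) and Slc44a1 (0.977). Gm14461 read 4.31 and 4.14 in flox cells with tamoxifen and between 1.14 and 2.02 on the other arrays. The 3 most like H2-K1 were Lyl1 (0.977), Mink1 (0.966) and Enpp4 (0.953). Lyl1, a blood-lineage transcription factor gene, read -1.40 and -1.12 in untreated flox cells and between -0.45 and 0.35 on the other 6 arrays. These correlations describe 8 arrays that share day 0 extracts, and carry no test.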

How the data were processed

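Cytoplasmic RNA was measured on 8 Agilent dual-colour arrays. Per the submitters' processing notes, the authors used Agilent Feature Extraction 10.7.3.1. The deposited scanner files hold the mean intensity and the local background intensity of each spot in both channels, flags of 0 or 1 (well above background, outlier, control), and the log10 ratio of processed signals. The deposited value table holds that log10 ratio turned to day 3 over day 0, equal to the scanner files to within 5e-10. No spot was saturated (0 of 44397 on any array).

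Mean intensities were corrected with normexp (offset 50) and normalized by loess within arrays, with control spots at weight 0, in limma 3.58.1 (R 4.3.3). Channel levels are log2 values after quantile normalization of average intensity between arrays. Outlier spots were dropped, and replicate spots of a probe were averaged. The filter asked for a probe well above background on both arrays of some group in either channel, and left 22388 of 39429 probes and 17987 genes, each by its brightest probe. The share of probes so flagged was 51.2% to 57.7% per channel. Names were taken from the files, updated through RefSeq accessions for 26412 probes. Coordinates of probes are mm9, as in the files.

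The main fit held 4 group means and 1 experiment term, shared by the dye direction and the slide. The series' design text names the replicate numbers as biological experiments, so that they pair the samples, and deviations from the group means correlated between groups at 0.31 to 0.73. Day 0 levels were compared over 4 extracts, the arrays of an extract averaged. P-values were adjusted by Benjamini-Hochberg over all genes, with a threshold of 0.05, and ± is the standard error of the fit. On simulated ratios of the tamoxifen effect in flox cells over 17987 genes, 46 of 50 genes with a log2 change of 1 and 4 of 50 with a change of 0.5 were recovered, with 12 calls among unchanged genes. The members and gene lists were chosen with earlier results of these data known. Genes were named by role as the members, as list genes that passed for tamoxifen in flox cells, as at most 4 others of a list by smallest p, and as the 3 most like H2-M2 or H2-K1. Alternatives were the fit without the experiment term, median centring, Agilent's processed ratios, looser and stricter filters, a random block for shared day 0 RNA, the mean of all probes, the day 3 channel alone, and each array left out in turn.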

Additional observations from a re-analysis of the deposited data

Results flagged for a closer look

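The difference between the tamoxifen effects in flox and in control cells was itself past the test for H2-M2 (2.32 on the log2 scale, limma adjusted p = 0.0182), with both effects above 0 in both experiments. H2-M2 lay near or below background in untreated control cells, so that its control effect may be larger and this difference smaller than measured. It was 1.64 (adjusted p = 0.0957) with Agilent's processed signals. For 4 further genes, each read by its brightest probe, the estimate of the tamoxifen effect was above 0 in flox cells and below 0 in control cells in both experiments. By these probes none of the effects passed, and the tested differences missed the threshold. These were H2-Q8 (1.20, adjusted p = 0.196), H2-K1 (0.75, adjusted p = 0.221), B2m (0.68, adjusted p = 0.142) and Tapbp (0.44, adjusted p = 0.564). For H2-K1 the control effects were close to 0, at -0.08 in experiment 1 and -0.01 in experiment 2. Its second probe did not give opposite signs in experiment 1, where the control ratio was 1.11 without and 1.18 with tamoxifen. By that probe the control effect was 0.02 over both experiments, and the flox effect of 0.69 passed (limma adjusted p = 0.0365 over all probes).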

How the results depend on the processing

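The count of the 10 genes called was compared over the alternatives. Without the term for the experiment (no replicate block) it was 3 for flox cells from day 0 to day 3, 1 for tamoxifen in flox cells and 0 for flox against control without tamoxifen. With median centring it was 1 for tamoxifen in flox cells and 2 for the difference of the tamoxifen effects. With Agilent's processed signals it was 0 for that difference, 0 for flox against control without tamoxifen and 1 at day 0. The strict filter dropped H2-M2, and left 0 for the difference and 0 for flox against control with tamoxifen. With day 0 RNA as a random block it was 5 for tamoxifen in flox cells and 2 for the difference. The day 3 channel alone gave 5 for flox against control without tamoxifen (4 lower, 1 higher). Leaving out each array gave 1 to 6 for tamoxifen in flox cells, 0 to 2 for the difference, 0 to 1 for flox against control with tamoxifen, 0 in every case without tamoxifen, 3 to 5 for untreated flox cells from day 0, and 0 to 1 at day 0, where this alternative was chosen after seeing the data. Where an omission left 1 array in a group, that array was assumed to vary like the others. Other counts stayed within 1.5 times.

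Over all genes, the count called for tamoxifen in flox cells was 1624 and ranged from 223 to 2904, and for the difference it was 205 and ranged from 0 to 818. No called value of a single gene changed sign. In 68 cases, none called in either setting, an estimate crossed 0. The cause was not tested in any of these cases. At 2 arrays a group, changes of 0.5 on the log2 scale were mostly below what the test could call, and H2-M2 in control cells lay near background.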
